A study of Homo sapiens with 2 samples.

Results

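The genes described here are 8 markers of endothelial cells, the cells that line blood and lymph vessels, read out in HepG2, a liver cancer line that is not of endothelial origin. They are CDH5, LYVE1, ENG, TIE1, PECAM1, VWF, KDR and TEK, taken by gene name from a table of 60448 genes, and all 8 were in it. They were chosen with their FPKM values in both libraries known, so every level and difference of these genes is a description and none is tested. FPKM is the number of reads per kilobase of gene, scaled to the depth of the library.

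Polyadenylated RNA was sequenced from HepG2 cells that received either a negative control siRNA or an siRNA for SPRTN, a protease of DNA-protein crosslink repair. Both groups were reverse transfected at 40 nM, with 24 h in the transfection mix and 72 h in total before RNA isolation. Each group has 1 library, so no difference below has a replicate check. The control library held about 96400000 assigned reads and the SPRTN siRNA library about 67100000, and SPRTN itself stood at 7.81 FPKM in the control (1349 reads) and 2.07 FPKM with the SPRTN siRNA (249 reads).

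Endothelial identity is set largely by transcription factors of the ETS family, such as ERG and FLI1, which act with GATA, SOX and other factors on the promoters and enhancers of endothelial genes. The products of the 8 genes cover several roles. CDH5 (VE-cadherin) and PECAM1 (CD31) hold endothelial cells together. KDR (VEGF receptor 2), TIE1 and TEK (TIE2) are receptor tyrosine kinases of vessel growth. ENG (endoglin) is a co-receptor for TGF-beta family ligands. LYVE1 binds hyaluronan on lymphatic and liver sinusoidal endothelium, and VWF is the clotting protein stored in endothelial granules. In liver these genes mark sinusoidal and vascular cells, not hepatocytes.

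All 8 genes were low in both libraries, and the members went apart between them. CDH5, LYVE1, ENG and VWF were higher in the SPRTN siRNA library by plain FPKM ratio, by 6.23-, 2.97-, 2.54- and 2.56-fold. TIE1 was lower, PECAM1 was close to its control level, KDR rested on single reads and TEK was listed at 0. The intervals below are exact 95% intervals from recovered reads. They hold the error of counting alone: PCR copies are not separate molecules, and the spread between cultures is unknown.

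A promoter window is shown for ENG, the co-receptor gene that was higher, and for TIE1, the receptor gene that was lower, because both carry the core letters of an ETS site. RefSeq windows (GRCh38.p14, 250 bases before to 50 after the start) were matched by symbol for 4 of the 8 members, ENG, TIE1, KDR and TEK. Capitals mark AGGAAG, which reads CTTCCT where it lies on the opposite strand.
ENG, minus strand, chr9:127854609-127854908: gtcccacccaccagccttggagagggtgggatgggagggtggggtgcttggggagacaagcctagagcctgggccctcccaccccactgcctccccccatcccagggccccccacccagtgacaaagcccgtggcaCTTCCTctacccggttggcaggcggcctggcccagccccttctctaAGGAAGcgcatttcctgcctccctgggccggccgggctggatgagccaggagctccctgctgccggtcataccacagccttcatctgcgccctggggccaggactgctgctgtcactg
TIE1, plus strand, chr1:43300732-43301031: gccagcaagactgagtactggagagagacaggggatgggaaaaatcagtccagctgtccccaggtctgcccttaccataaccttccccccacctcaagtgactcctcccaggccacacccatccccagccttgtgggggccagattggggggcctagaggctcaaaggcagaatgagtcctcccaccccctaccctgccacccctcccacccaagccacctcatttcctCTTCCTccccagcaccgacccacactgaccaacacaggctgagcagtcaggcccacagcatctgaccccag
The ENG window held 2 such matches and the TIE1 window 1, while 33.6% of all 35116 windows held at least 1. The windows of KDR and TEK held 0. A second ETS spelling, CCGGAA, was in none of these windows and in 17.2% of all. The SP/KLF letters GGGCGG were found 2 times in the KDR window and in none of the others, against 45.0% of all windows. The letters AGATAA of GATA factors and the letters TGTTTAC of FOX factors each occurred 1 time, in the second of the 2 TEK windows, and in 10.3% and 3.42% of all windows. The genes with AGGAAG thus include 1 that was higher and 1 that was lower, and a match of letters is a description, not a binding site.

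The junction genes come first. CDH5 (chromosome 16, 66366622 to 66404786, plus strand, GRCh38) encodes the cadherin of endothelial adherens junctions. Its level was 0.439 FPKM in the control (0.353 to 0.539) and 2.74 FPKM with the SPRTN siRNA (2.47 to 3.02). The ratio was 6.23 (4.97 to 7.95), and the intervals of the 2 libraries did not overlap. These values correspond to about 91 and 396 reads, which the length used here does not turn into exact whole numbers. Only 2.19% of protein-coding genes of like level, defined below, had a higher ratio.

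PECAM1 (chromosome 17, 64319415 to 64413776, minus strand) encodes an adhesion protein of endothelial junctions, platelets and leukocytes. It had the highest control level of the 8, at 2.47 FPKM (2.20 to 2.76) from 307 reads, and stood at 2.92 FPKM (2.57 to 3.30) from 252 reads with the SPRTN siRNA. The ratio was 1.18 (0.995 to 1.40), an interval that includes equality.

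PECAM1 is the 1 member whose 3' UTR held a site for the siRNA guide. The 7-base site that pairs with guide positions 2 to 8 lies at chromosome 17, 64323403 to 64323409, minus strand, in 1 annotated coding transcript. It is shown in capitals because an siRNA can lower transcripts with such sites.
PECAM1 site: agcgcatggcCTGGTTAgaggctggtt
The share of genes with this 7-base site was 10.5% among 11134 coding genes whose mean FPKM was 1 or more. PECAM1 was at 1.18 times its control level. TIE1, the lower member, held no such site, nor did the other 6 members.

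Of the 3 receptor kinases, 1 was well counted. TIE1 (chromosome 1, 43300993 to 43323108, plus strand), an orphan receptor that works with TIE2, had 1.84 FPKM (1.60 to 2.11) from 212 reads in the control. In the SPRTN siRNA library it had 1.07 FPKM (0.859 to 1.33) from 86 reads. It was 1.71-fold lower (1.33 to 2.23), the reverse of CDH5, LYVE1, ENG and VWF.

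KDR (chromosome 4, 55078259 to 55125595, minus strand), the main signalling receptor for VEGF, measured 0.0145 FPKM in the control and 0.00523 FPKM with the SPRTN siRNA. After correction for depth these values stand in the ratio of 4 reads to 1 read, the smallest whole pair that gives it. The ratio of the SPRTN siRNA library to the control was 0.359 with an interval of 0.00730 to 3.63, so no difference in KDR was detectable at this depth. TEK (chromosome 9, 27109141 to 27230175, plus strand), the angiopoietin receptor, was listed at 0 in both libraries. A count of 0 allows up to 3 reads, which would be 0.00830 FPKM in the control and 0.0119 FPKM with the SPRTN siRNA. None of 16 genes of general cell maintenance, such as ACTB and GAPDH, was listed at 0.

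**Figure D1:**
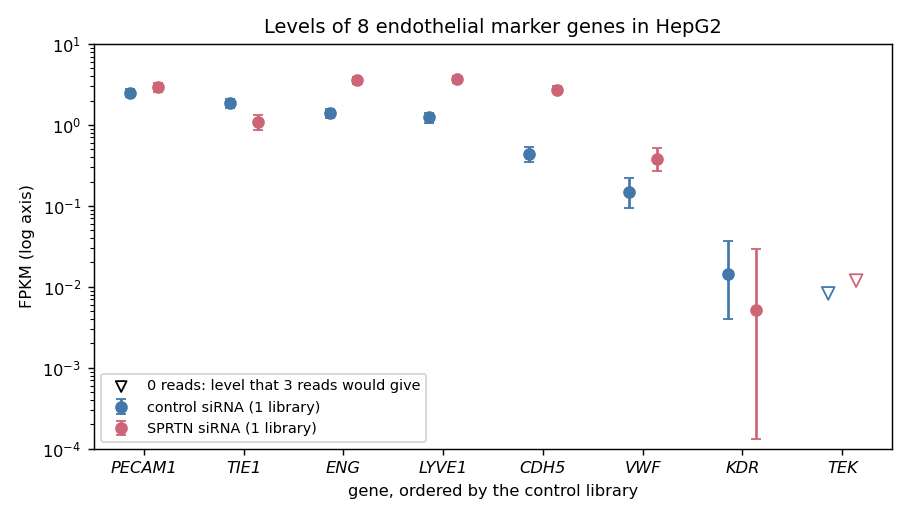
FPKM (log axis) of the 8 genes in the control (blue) and the SPRTN siRNA library (red), 1 library each, with exact 95% Poisson intervals; open triangles give the level of 3 reads for TEK, listed at 0. CDH5, LYVE1, ENG and VWF lie higher in red with intervals that do not overlap, TIE1 lies lower, and the 2 PECAM1 intervals overlap.

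ENG (chromosome 9, 127815012 to 127854756, minus strand) presents BMP9 and other TGF-beta family ligands to signalling receptors. It had 1.40 FPKM (1.23 to 1.57) from 271 reads in the control and 3.55 FPKM (3.24 to 3.88) from 479 reads with the SPRTN siRNA. The ratio was 2.54 (2.18 to 2.96), and ENG had the most reads of the 8 in the SPRTN siRNA library. An antisense gene, RP11-228B15.4, shares 313 exonic bases with ENG and had 23 and 25 reads. No source used here states whether strand was used, so reads in the shared bases cannot be assigned to one of the pair.

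LYVE1 (chromosome 11, 10556966 to 10611689, minus strand), the hyaluronan receptor, had 1.24 FPKM (1.07 to 1.42) from 200 reads in the control and 3.67 FPKM (3.33 to 4.04) from 413 reads with the SPRTN siRNA. The ratio was 2.97 (2.50 to 3.53). LYVE1 lies across the gene MRVI1 on the same strand, with 0 shared exonic bases, and MRVI1 went from 0.228 to 0.371 FPKM (ratio 1.63). The nearest coding gene that does not overlap LYVE1, RNF141, was at 12.6 and 10.8 FPKM (ratio 0.857).

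VWF (chromosome 12, 5948874 to 6124770, minus strand) had 0.148 FPKM (0.0941 to 0.223) from 23 reads in the control and 0.381 FPKM (0.273 to 0.516) from 41 reads with the SPRTN siRNA. The ratio was 2.56 (1.502 to 4.47). Reads from VWF can also match its partial copy on another chromosome, VWFP1, which was listed at 0 in both libraries.

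The order of the levels differed between the libraries. In the control it ran from PECAM1 through TIE1, ENG, LYVE1, CDH5, VWF and KDR to TEK, and only ENG and LYVE1, and KDR and TEK, were neighbours with overlapping counting intervals. In the SPRTN siRNA library it ran from LYVE1 through ENG, PECAM1, CDH5, TIE1, VWF and KDR to TEK. There LYVE1, ENG, PECAM1 and CDH5 each overlapped the next. CDH5 was below ENG and LYVE1 in both libraries.

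These orders also depend on gene length. The deposited FPKM match a division by the mean length of all annotated transcripts of a gene, which counts short fragments of annotation as much as the full mRNA. The longest transcript was 5.30 times the mean for PECAM1, 5.50 times for VWF and 3.25 times for TIE1, against 1.52 times for ENG. Per kilobase of the longest transcript, PECAM1 fell from the first place in the control to the fourth, at 0.466 FPKM. ENG then led at 0.919 FPKM in the control and 2.33 FPKM with the SPRTN siRNA. Ratios between the libraries do not use the length and were not touched.

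**Figure D2:**
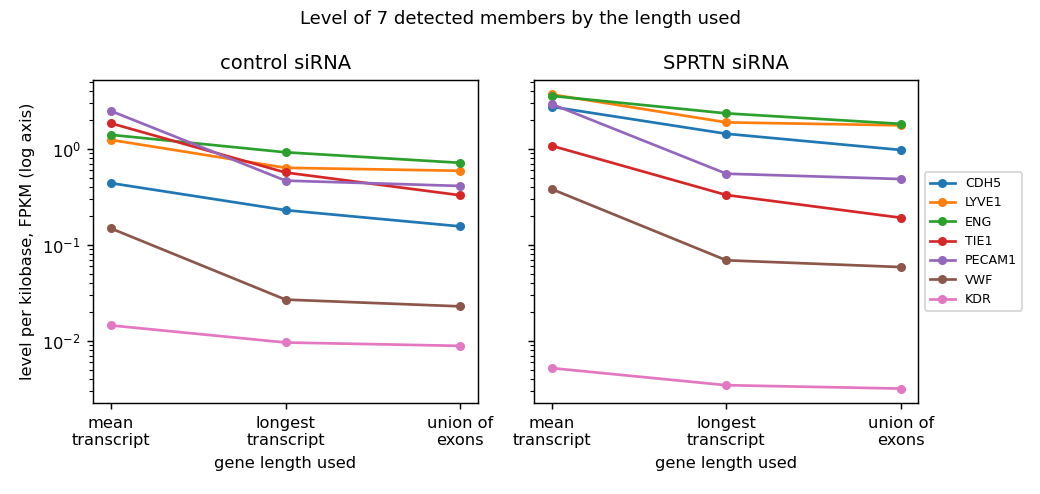
Level per kilobase (FPKM, log axis) of the 7 members above 0 in each library, by the gene length used (mean transcript, longest transcript, union of exons); lines join the values of 1 gene. PECAM1, TIE1 and VWF drop most from the mean to the longest transcript, and ENG leads both libraries with either of the other lengths.

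By rank, the better counted members sat in the middle of all protein-coding genes, many of which were at or near 0. In the control, 48.2% of protein-coding genes were lower than PECAM1, 45.1% lower than ENG and 40.3% lower than CDH5. In the SPRTN siRNA library 51.1% were lower than LYVE1 and 48.8% lower than CDH5. Hepatocyte genes were far above them, with albumin (ALB) at 9997 FPKM in the control and 16435 FPKM with the SPRTN siRNA.

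Whether a member was high is read against other genes. On the scale of log2(FPKM + 1), which understates the change of low genes, 5 of the 8 members had a mean FPKM of at least 1. CDH5 and LYVE1 were at least 2-fold higher, with differences of 1.38 and 1.06, and none of the 5 was at least 2-fold lower. ENG had 0.92, PECAM1 0.17 and TIE1 -0.45. Of all 13203 genes with that mean, 1.51% were higher by 2-fold or more and 0.788% lower by as much, but most of those genes are far more abundant than the members. VWF (0.27), KDR (-0.01) and TEK (0) were below the filter. The median of all 8 members, the 3 below the filter included, was 0.22. For the 5 members that passed the filter, whose choice used these values, it was 0.92, against -0.05 for the 13203 genes.

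Genes of like level give a closer background. Among 2235 protein-coding genes with a mean FPKM between those of VWF (0.265) and PECAM1 (2.69) and with at least 20 reads in both libraries together, 17.5% were at least 2-fold higher in the SPRTN siRNA library by plain FPKM ratio. Only 3.71% were at least 2-fold lower. Of the 6 members in that group, 4 were at least 2-fold higher and 0 lower. The median log2 ratio of these low genes was 0.18, and the counting interval lay above equality for 40.0% of them and below for 20.3%. Low genes as a whole therefore leaned upward in the SPRTN siRNA library, and a 2-fold higher value is common among them.

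Within this background the members were spread widely. LYVE1 was exceeded by 8.32% of the low genes, VWF by 10.96% and ENG by 11.1%, so these 3 lay inside the upper tail that many other low genes share. PECAM1 was exceeded by 46.8%, near the middle, and TIE1 by 93.7%. With every gene from the level of KDR to that of PECAM1, single-read genes included, 34.2% were higher by 2-fold or more and 20.3% lower by as much.

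**Figure D3:**
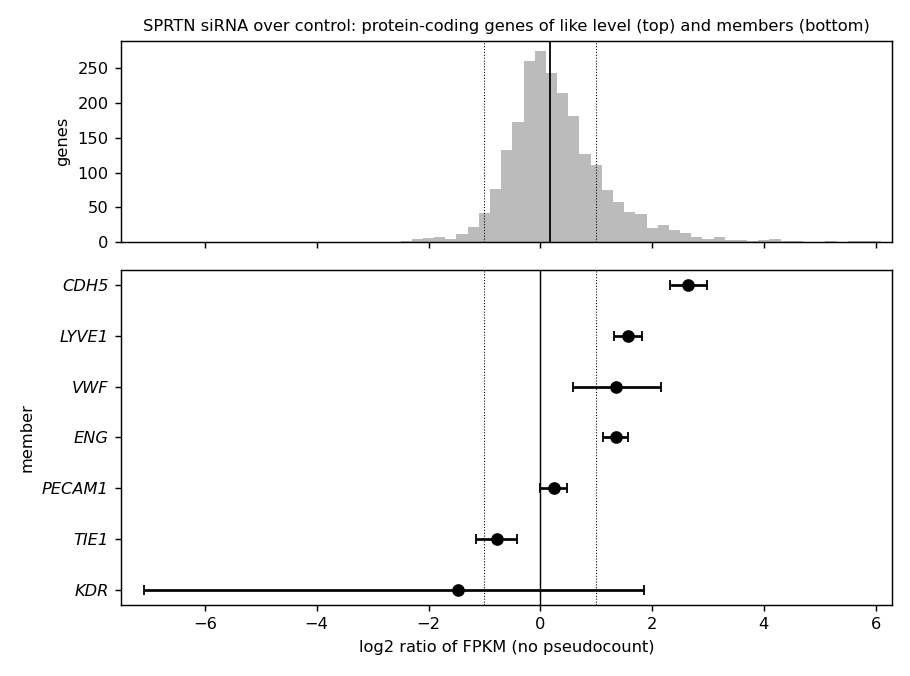
Log2 ratio of FPKM, SPRTN siRNA over control: top, 2235 protein-coding genes of the level of VWF to PECAM1 (3 genes at 0 in the control are not drawn, and the outermost bar on the right holds larger values too), with a line at their median of 0.18; bottom, the 7 members above 0 with exact 95% counting intervals. Dotted lines mark 2-fold. CDH5 lies in the far right tail, LYVE1, VWF and ENG on the right shoulder, TIE1 on the left, and KDR spans both sides.

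The authors' deposited table gives its own calls, made from 1 library against 1 library by a method that no source used here states. The authors' deposited table calls CDH5, LYVE1, ENG and VWF higher, at log2 fold changes of 2.64, 1.57, 1.35 and 1.36. Among 25035 genes with a p-value, 9.2% are called higher and 3.32% lower in the authors' deposited table. TIE1, PECAM1 and KDR are not called in the authors' deposited table, with log2 fold changes of -0.78, 0.24 and -1.48. The rule behind a call is not stated, and for TIE1 the lack of a call does not come from a large p-value. For TIE1, PECAM1, KDR and VWF the deposited adjusted p-values are smaller than the p-values, and how they were adjusted is not stated.

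Other endothelial genes were looked up in 3 lists chosen by textbook role. Genes named from these lists outside the naming rule were picked after their values were seen. Of 22 endothelial transcription factors, 9 had a mean FPKM of at least 1, and 0 of the 9 were at least 2-fold higher or lower (median log2 difference -0.06). HHEX stood at 56.3 and 53.8 FPKM, ETS2 at 40.1 and 43.9 FPKM and GATA2 at 23.5 and 30.3 FPKM, in the control and the SPRTN siRNA library. HHEX is also a factor of hepatocyte development. HEY1, a Notch target, had the largest difference of these 9, 0.50, from 3.11 to 4.83 FPKM. The ETS factors ERG and FLI1, which define endothelial cells, were listed at 0 in both libraries, and 3 reads would have been 0.0101 FPKM for each in the control.

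Among 42 pan-endothelial surface and junction genes, 15 had a mean FPKM of at least 1, with 9 above and 6 below 0 and none 2-fold apart (median 0.18). MCAM, an adhesion protein also found on other cells, was lower at 44.3 and 27.4 FPKM, and so was the VEGF co-receptor NRP1 at 3.38 and 1.92 FPKM. RAMP2 was lower too, at 2.13 FPKM (117 reads) and 1.26 FPKM (48 reads), a ratio of 0.590 (0.412 to 0.832). ICAM1, a leukocyte adhesion protein that inflammation induces in many cells, went from 76.7 to 105 FPKM. TM4SF1 was the most abundant at 331 and 279 FPKM. PTPRB, the phosphatase VE-PTP that acts on VE-cadherin and TIE2, was at 0.280 FPKM (129 reads) and 0.667 FPKM (213 reads), a ratio of 2.38 (1.90 to 2.98). The endothelial sialomucin EMCN and the caveolin CAV1 were listed at 0 in both libraries, and CD34 was at 4 and 0 reads.

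The 19 sinusoidal and lymphatic genes, which share their cell types with LYVE1, had 2 members with a mean FPKM of at least 1. RELN, a secreted protein also made by neurons, was lower at 127 and 85.2 FPKM, and OIT3 was at 1.93 and 1.85 FPKM. The scavenger receptor STAB2 went from 26 to 44 reads (ratio 2.43, 1.47 to 4.12) and coagulation factor F8 from 29 to 55 reads (2.66, 1.71 to 4.44). Of these 19 genes, 8 were listed at 0 in both libraries, the sinusoidal lectins CLEC4G and CLEC1B among them.

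Set on the same level band as the members, the 3 endothelial lists together held 13 genes, of which 2 (PTPRB and CCL14) were at least 2-fold higher and 0 lower. Genes of these lists below that band, with at least 20 reads in both libraries together, went both ways. ROBO4 (56 and 16 reads) and JAM2 (17 and 3) were more than 2-fold lower. FOXC2 (0 and 30 reads), THBD (3 and 26), MMRN2 (15 and 22), STAB2 and F8 were at least 2-fold higher. For these 13 genes the median is given next. The median plain log2 ratio of the 13 genes was 0.30, against 1.35 for the 6 members, whose choice used these values, and 0.18 for all 2235 genes. Markers of blood, fibroblasts and bile ducts held 5 genes on that band, with 1 (HBA1) at least 2-fold higher, 0 lower and a median of 0.77. The platelet integrin gene ITGA2B was also higher, at 0.682 and 1.36 FPKM. Of these 5 genes, 4 had ratios above 1, and COL1A1 was lower, at 1.80 FPKM (200 reads) and 1.02 FPKM (79 reads).

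**Figure D4:**
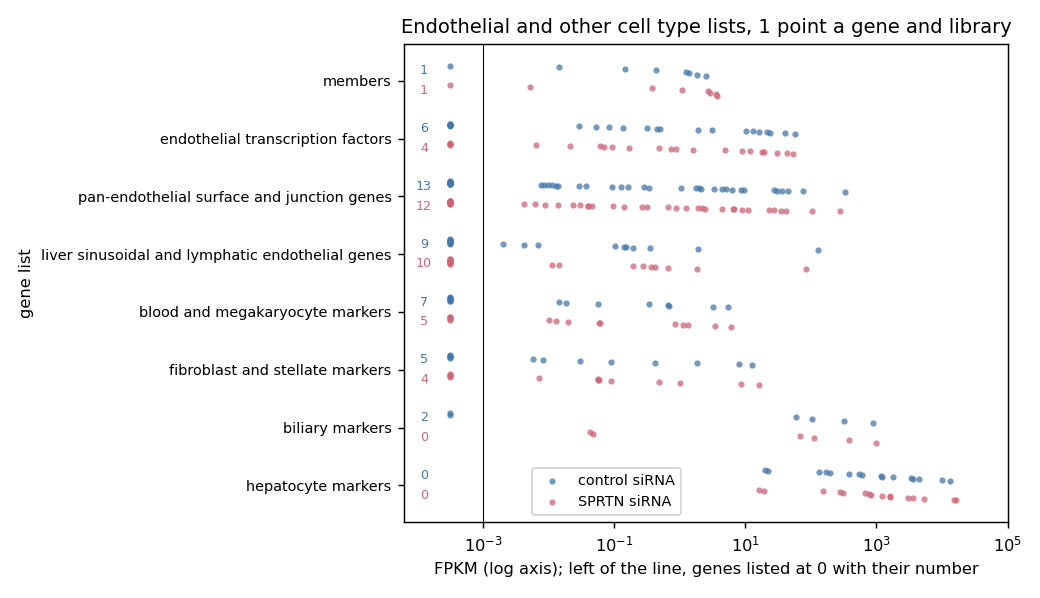
FPKM (log axis) of each gene of 8 lists in the control (blue) and the SPRTN siRNA library (red), 1 point a gene; points left of the line are listed at 0, with their number. The members and the other endothelial lists reach down to 0 as the blood and fibroblast lists do, while the 16 hepatocyte markers lie to the right, the lowest being FOXA2 at 19.7 and 16.1 FPKM.

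The label of the cells was checked against cell type markers. All 16 hepatocyte markers were above 0, and their summed level was 40787 FPKM in the control and 51363 FPKM with the SPRTN siRNA. The summed level of the 8 members was 7.55 and 14.3 FPKM. The 15 blood markers summed to 10.4 and 12.9 FPKM, led by CD4 at 5.45 and 6.003 FPKM and CD14 at 3.21 and 3.43 FPKM, and 5 of them were listed at 0 in both libraries, the leukocyte marker PTPRC among them. The 13 fibroblast and stellate markers summed to 23.3 and 26.2 FPKM, led by ACTA2 at 12.8 and 15.9 FPKM and PDGFRB at 8.15 and 8.49 FPKM, and 3 were listed at 0 in both, COL3A1 among them. The 6 biliary markers summed to 1367 and 1538 FPKM. In a bulk sample, fewer cells of a type and less RNA per cell cannot be told apart. Of the endothelial genes, 3 of the 22 transcription factors, 7 of the 42 surface and junction genes and 8 of the 19 sinusoidal and lymphatic genes were listed at 0 in both libraries. ERG, FLI1, EMCN and TEK were thus at 0, while others were well counted, such as SOX18 with 2874 and 2213 reads, the junction gene ESAM with 1453 and 711 reads and the nitric oxide synthase NOS3 with 1046 and 1026 reads. Their part in the levels of the members was not tested.

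Many ligands and partners of the members were more abundant than the members. In the VEGF family, VEGFA, the ligand of KDR, stood at 72.0 FPKM in the control and 87.8 FPKM with the SPRTN siRNA. PGF was at 11.8 and 14.6 FPKM and VEGFB at 17.7 and 18.0 FPKM. Of 8 VEGF and angiopoietin ligands, these 3 had a mean FPKM of at least 1, with a median log2 difference of 0.28. VEGFA was thus read from 10850 and 9201 reads, against 4 and 1 for its receptor KDR. The angiopoietins, ligands of TEK, were near 0, with ANGPT1 at 0 and 9 reads, ANGPT2 at 8 and 19 and ANGPT4 at 0 and 6.

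For ENG, 19 of 25 genes of ligands, receptors and SMADs had a mean FPKM of at least 1, with 10 above and 9 below 0 and none 2-fold apart on that scale (median 0.09). TGFBR1, the type I receptor of TGF-beta, was the farthest from 0, at 17.3 and 8.54 FPKM, 2.03-fold lower by plain ratio (1.91 to 2.16). The 3' UTR of TGFBR1 held the 7-base site of the siRNA guide, as did 10.5% of coding genes with a mean FPKM of 1 or more. Outside the members, TGFBR1 is the only gene for which this lookup is given, and its values were known. Whether the site had a part in its level was not tested. The signal carrier SMAD1 was at 10.4 and 6.55 FPKM and the ligand BMP4 at 117 and 69.3 FPKM. The BMP target genes ID1, ID2 and ID3 were at 403, 143 and 101 FPKM in the control and at 492, 157 and 113 FPKM with the SPRTN siRNA. ACVRL1 (ALK1), the receptor with which endoglin works in endothelium, was listed at 0 in both libraries, as were its ligands GDF2 and BMP10.

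Of the cytoplasmic and junction partners of cadherins, 7 of 9 had differences below 0 and 2 above, with a median of -0.33 and none 2-fold apart. Beta-catenin (CTNNB1) went from 296 to 209 FPKM and p120-catenin (CTNND1) from 65.9 to 51.3 FPKM. The list held 2 cadherins, and both were lower, CDH2 at 22.0 and 16.1 FPKM and CDH1 at 6.89 and 5.28 FPKM. JUP (1.06) and VCL (1.15) were the 2 partners with plain ratios above 1.

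Of 8 hyaluronan genes, which make, cut or bind the ligand of LYVE1, 5 had a mean FPKM of at least 1. CEMIP, which is needed for hyaluronan breakdown, was 2.06-fold higher (2.004 to 2.12), at 24.4 and 50.2 FPKM, and HYAL1 went from 112 to 144 FPKM. HMMR, a hyaluronan binding protein of the mitotic spindle, was lower at 24.4 and 16.9 FPKM. The synthases HAS1 and HAS2 were listed at 0 in both libraries. Among partners of VWF and PECAM1, the phosphatase PTPN11 was at 83.7 and 83.5 FPKM and the integrin subunit ITGAV at 77.2 and 58.3 FPKM. ADAMTS13, the protease that cuts VWF, was higher at 0.619 FPKM (189 reads) and 1.02 FPKM (217 reads), a ratio of 1.65 (1.35 to 2.02).

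Genes next to the members in the genome moved in varied ways. Beside TIE1, the opposite-strand gene C1orf210 was lower too, at 0.374 FPKM (38 reads) and 0.113 FPKM (8 reads). Beside CDH5, BEAN1, which lies 22511 bases away, was at 0.517 and 0.929 FPKM (ratio 1.80). On the other side the nearest coding gene, the cadherin gene CDH11, lies 1240510 bases away. CDH11 was at 0.00686 and 0.0592 FPKM, from 1 and 6 reads. Beside ENG, FPGS, which lies 685 bases away, was at 54.2 and 38.6 FPKM (ratio 0.713), and AK1 was at 5.23 and 7.99 FPKM (ratio 1.53). TEX2 beside PECAM1 and IFT74 beside TEK had ratios of 0.987 and 0.997.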

How the data were processed

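The authors deposited FPKM values for 60448 genes in 2 HepG2 libraries, 1 for each siRNA. Per the submitters' processing notes, the authors used edgeR and GRCh38.p13, with no role or version stated. No source used here states the aligner, counter, annotation release or use of strand. Columns were mapped to groups by their names, the one marked si being the SPRTN siRNA library. The deposited table is named for row means without saying what was averaged, so how many cultures a column covers is not known. A second deposited table holds a length-scaled signal, which was only set against the FPKM, and the authors' log2 fold changes and p-values.

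Reads were recovered as FPKM times mean transcript length (GENCODE 29, GRCh38) over the worth of 1 read. Among genes of up to 20 reads, 93.9% of values in the control and 93.3% in the SPRTN siRNA library lay within 0.05 of a whole number. TEK, LYVE1, ENG, TIE1, PECAM1 and VWF came out whole; CDH5 was rounded, and KDR was given the smallest whole pair in its exact ratio. Ratios carry exact 95% intervals (Clopper-Pearson) of how a gene's reads divide between the libraries, and levels exact Poisson intervals (scipy 1.17.1). Since each group is 1 library, nothing was tested across libraries, and genes were counted by size, at 2-fold. The steps were tested on simulated data. Members, lists and the naming rule were chosen with earlier results of these data known. The rule names the 8 members, SPRTN, the genes overlapping or next to a member, and from each other list the 3 most abundant genes and up to 4 with the largest log2(FPKM + 1) difference at a mean FPKM of at least 1. ALB, FOXA2 and other genes set beside a member were picked as context. TMM factors, one of the alternatives, were computed from recovered reads with numpy 2.4.6.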

Additional observations from a re-analysis of the deposited data

How the results depend on the processing

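No paired analysis was possible because each group has 1 library, with no replicate to leave out. Scaling by median of ratios, by TMM or on the median gene moved ratios by at most 0.05 on the log2 scale, and in all 23 recomputed member ratios, the other readings of the reads of CDH5 and KDR included, the value stayed inside the counting interval. With KDR rounded to 6 and 1 reads its ratio was 0.240 (0.00521 to 1.98). The count of 4 of 6 members at least 2-fold higher by plain ratio, on a level band chosen after seeing the data, was the same under the 3 scalings.

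On the scale of log2(FPKM + 1), 2 members were at least 2-fold higher. That count was 3 with a pseudocount of 0.1 or 0.01 and with recovered reads scaled to depth alone. It was 0 at a minimum mean FPKM of 5, which no member reached, and 0 with the union exon length or the longest transcript length, which lower the FPKM and leave 2 members above the filter. The median of the 8 members, 0.22, was 0.59 with a pseudocount of 0.1 and 0.77 with 0.01, but 0.06 with the union exon length and 0.07 with the longest transcript length. The share of genes at least 2-fold higher, 1.51%, was 2.79% and 2.99% with these pseudocounts, 0.410% with no filter and 0.890% at a minimum mean FPKM of 5. The share at least 2-fold lower, 0.788%, was 1.74% and 1.89% with these pseudocounts, 0.195% with no filter and 0.519% with the union exon length. Depth limits KDR and TEK, for which no difference was detectable at these read numbers.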
